A study of Mus musculus with 6 samples.

Results

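Csf1, Il34 and Csf1r were followed in the aorta of young and aged mice. Csf1 and Il34 encode the growth factors colony stimulating factor 1 and interleukin 34, and Csf1r encodes the receptor tyrosine kinase that both of them bind. The members were picked by gene symbol, as 3 of the 55335 genes in the count table, and all 3 passed the filter on low counts that left 16612 genes. They were chosen because Csf1 had been higher in all aged libraries, so the aged and young values of the 3 genes are given here as a description and without a test. The material was aorta from wild-type C57BL/6 mice (written c57b6l in the labels), with 3 mice aged 6 weeks as the young group and 3 mice aged 6 months as the aged group. The mice carried no transgene or treatment, and the study describes all of them as male. RNA of the vessel was sequenced as 1 library per mouse, so each value is an average over the cells of the wall and of tissue left on it.

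Signalling through the Csf1 receptor keeps monocytes and tissue macrophages alive, and drives their proliferation and maturation. Csf1 is made by many stromal cells, among them fibroblasts, smooth muscle cells and endothelial cells, and exists as secreted and membrane-bound forms. Il34 is a ligand unrelated in sequence, best known for its part in keeping Langerhans cells of the skin and microglia of the brain. In arteries, macrophages live mainly in the adventitia, and the receptor is carried chiefly by cells of that lineage.

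The counts summed to between 31049632 and 45832185 per library. Genes of the mitochondrial genome took 14.9% to 21.2% of the counts in young and 23.1% to 30.4% in aged aorta. Young replicate 1 went against the stated male sex, with 14806 counts of Xist, the RNA of the inactive X chromosome, against 7 to 24 in the other libraries, and with 53 counts of the Y-linked gene Ddx3y against 1488 to 2117. Aged replicate 2 stood apart from the other aged libraries, at -13.4 on the first principal component where they were at 62.7 and 53.8 and the young libraries between -52.2 and -10.3. The fold changes of the 3 genes and the counts of the main lists are therefore also given without each of these libraries. Of the defining markers of aorta, Acta2, Myh11 and Tagln of smooth muscle reached at least 6101 CPM in every library, where CPM is the count scaled by edgeR's TMM library size. Across all genes, edgeR's quasi-likelihood test called 0 of 16612 genes at an adjusted p under 0.05 (0%), with 1723 at an unadjusted p under 0.05. DESeq2 called 334 genes and limma on FPKM called 0.

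Csf1 (ENSMUSG00000014599) was the more abundant ligand and was higher in each aged library than in any young one. The gene lies on the minus strand of chromosome 3 of GRCm38, from 107741048 to 107760469, and has 7 annotated transcripts, of which 6 are coding. Its level was 42.6, 48.4 and 67.2 CPM in young replicates 1, 2 and 3, and 79.4, 112 and 104 CPM in aged replicates 1, 2 and 3. The groups did not overlap, the closest libraries being young replicate 3 and aged replicate 1. The mean was 52.8 ± 12.9 CPM (SD, n = 3) in young and 98.5 ± 17.1 CPM (SD, n = 3) in aged aorta, a ratio of 1.87. The fitted log2 fold change of aged over young was 0.90 with an SE of 0.23, beside a median of 0.02 over all genes tested. Of the tested genes, 8.34% had a larger log2 fold change than Csf1. For comparison, 7.74% of tested genes had every aged library above every young one in CPM, and 8.78% had every aged library below. The log2 fold change of Csf1 was 0.78 without young replicate 1 and 0.80 without aged replicate 2.

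These Csf1 values rest on 1685 to 4231 counts per library. Before TMM scaling, young replicate 3 and aged replicate 1 were at 74.3 CPM (exact 95% interval 71.3 to 77.4) and 74.8 CPM (72.0 to 77.7), which could not be told apart by counting error. Their separation in normalized CPM thus came with the library scaling, and the other 2 aged libraries were above every young one on either scale. Intervals of this kind cover counting error only. In FPKM, the count scaled by gene length and library that the authors deposited, the same pair of libraries was at 12.7 and 12.8.

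**Figure D1:**
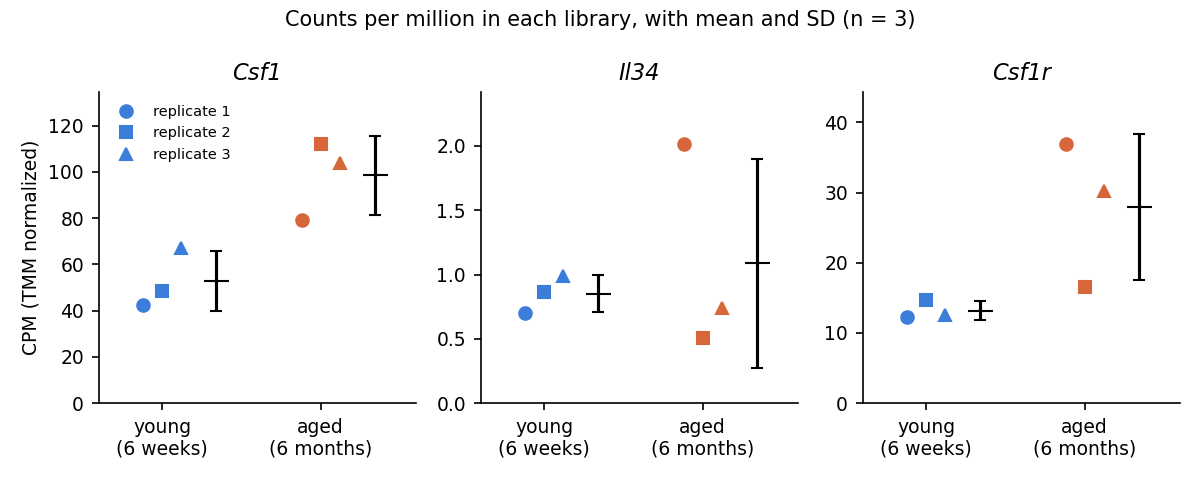
Normalized CPM of Csf1, Il34 and Csf1r in each library, by age group, with the mean and SD of 3 mice in black. Each gene has its own linear axis from 0. Csf1 ran from 42.6 to 67.2 CPM in young and from 79.4 to 112 CPM in aged aorta, while the groups overlapped for Il34 and aged replicate 2 lay just above the young libraries for Csf1r.

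Il34 (ENSMUSG00000031750) was low in every library and did not separate the ages. The gene is on the minus strand of chromosome 8, from 110741829 to 110805924, with 5 annotated transcripts of which 2 are coding. It was at 0.702, 0.862 and 0.991 CPM in young replicates 1 to 3, and at 2.02, 0.504 and 0.743 CPM in aged replicates 1 to 3. Aged replicate 1 was the highest of the 6 libraries and aged replicate 2 the lowest, so that the aged group enclosed the young one. The mean was 0.852 ± 0.145 CPM (SD, n = 3) in young and 1.09 ± 0.813 CPM (SD, n = 3) in aged aorta. The log2 fold change was 0.35 with an SE of 0.61, and turned to -0.45 without aged replicate 1. It was 0.23 without young replicate 1 and 0.70 without aged replicate 2. These values stand on 19 to 67 counts per library. Before scaling, aged replicate 1 was at 1.90 CPM (exact 95% interval 1.47 to 2.41) and aged replicate 2 at 0.471 CPM (0.283 to 0.735), so that the aged libraries differed from each other by more than counting error.

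Annotated neighbours limit what Il34 counts can show. Mtss1l ends 428 bases from Il34 and lies on the opposite strand, with 440 to 2952 counts per library. The antisense genes Gm15894 and Gm15895 overlap Il34, with 0 to 3 counts and 0 counts per library. The counting method and its use of strand are not given in the sources used here, so reads of an overlapping partner could not be told apart from reads of Il34.

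Csf1r (ENSMUSG00000024621), the receptor, was higher in aged aorta, with aged replicate 2 barely above the young libraries. It was at 12.3, 14.7 and 12.5 CPM in young replicates 1 to 3, and at 37.0, 16.6 and 30.3 CPM in aged replicates 1 to 3. The young libraries lay close together and the aged ones were spread widely. The mean was 13.2 ± 1.34 CPM (SD, n = 3) in young and 27.9 ± 10.4 CPM (SD, n = 3) in aged aorta, a ratio of 2.13. The log2 fold change was 1.09 with an SE of 0.30, and 6.22% of tested genes had a larger one. It was 1.04 without young replicate 1 and 1.36 without aged replicate 2. In FPKM the groups overlapped, since aged replicate 2 was at 2.45 and young replicate 2 at 2.49.

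The receptor gene lies on the plus strand of chromosome 18, from 61100598 to 61132149, with 6 annotated transcripts of which 4 are coding. Its last part overlaps Hmgxb3 on the opposite strand, and the genes share 873 exon bases, 15.1% of those of Csf1r. Hmgxb3 had 460 to 1094 counts per library and a log2 fold change of -0.28, the opposite direction to Csf1r. Since the use of strand in counting is not given, reads of these shared bases could not be told apart either. Pdgfrb, the receptor of platelet-derived growth factor on mural cells, lies 15536 bases below Csf1r on the same strand. Pdgfrb was at 414, 434 and 345 CPM in young replicates 1 to 3 and at 335, 238 and 309 CPM in aged replicates 1 to 3. Its groups did not overlap, and its log2 fold change of -0.43 (SE 0.19) did not pass the test by edgeR (adjusted p = 0.486).

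Levels per length were compared between the 3 genes within each library, which the choice of genes had not used. In FPKM, Csf1 was at 7.65, 8.96 and 12.7 in young replicates 1 to 3 and at 12.8, 18.1 and 15.9 in aged replicates 1 to 3. Csf1r was at 2.02, 2.49 and 2.16 FPKM in young and at 5.46, 2.45 and 4.23 FPKM in aged replicates 1 to 3. Il34 was at 0.336, 0.410 and 0.496 FPKM in young and at 0.860, 0.211 and 0.293 FPKM in aged replicates 1 to 3. The order Csf1, Csf1r, Il34 held in all 6 libraries.

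On the log2(FPKM + 0.1) scale, Csf1 exceeded Csf1r by 2.02 ± 0.57 (SD, n = 6; exact two-sided sign-flip permutation test, p = 0.03125 and adjusted p = 0.03125). Csf1 exceeded Il34 by 4.62 ± 0.82 and Csf1r exceeded Il34 by 2.60 ± 0.56 (SD, n = 6), with the same exact permutation p and adjusted p. The value 0.03125 is the smallest that 6 libraries allow, and p was adjusted over the 3 pairs. No neighbours in the order were within their spread, the smallest difference in any library being 1.21 between Csf1 and Csf1r in aged replicate 1.

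**Figure D2:**
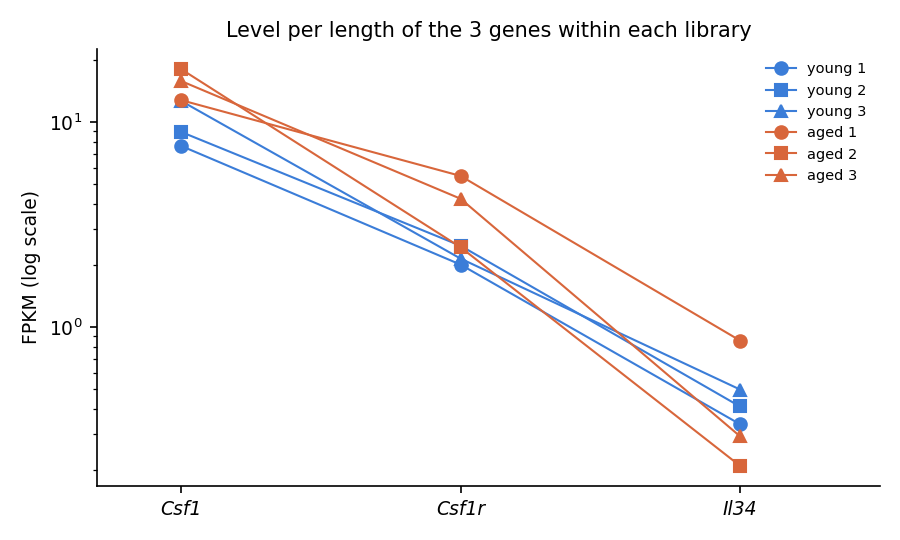
FPKM of Csf1, Csf1r and Il34 on a log axis, with 1 line per library and colour for age. All 6 lines fall from Csf1 to Csf1r to Il34, with Csf1 between 7.65 and 18.1 FPKM and Il34 between 0.211 and 0.860 FPKM.

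The distance between ligand and receptor varied from library to library. The ratio of Csf1 to Csf1r in FPKM was 3.79, 3.59 and 5.88 in young replicates 1 to 3 and 2.34, 7.39 and 3.75 in aged replicates 1 to 3. The aged group again enclosed the young one, with aged replicate 1 lowest and aged replicate 2 highest. Il34 made up 4.20%, 4.38% and 3.76% of the summed FPKM of both ligands in young replicates 1 to 3, and 6.30%, 1.15% and 1.82% in aged replicates 1 to 3. Its share was thus below the young range in aged replicates 2 and 3 and above it in aged replicate 1.

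Related growth factors and receptors were read as a list of 14 genes, of which 10 passed the filter. None of them was called by edgeR or DESeq2. At an unadjusted p under 0.05 by edgeR 3 were higher and 0 lower, where 5.56% of all tested genes were higher and 4.82% lower by that rule. The median log2 fold change was 0.42, beside 0.02 over all genes tested. The count of 3 higher fell to 0 when young replicate 3 or either of aged replicates 1 and 3 was left out. Over all genes those fits had 667 of 17306, 736 of 17274 and 640 of 17445 higher. The list count was 1 without young replicate 2, beside 728 of 17295 genes, and 2 without young replicate 1, beside 1018 of 17259. Without aged replicate 2 it was 4 higher and 1 lower, beside 1404 higher and 955 lower of 17147 genes.

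Of the other colony stimulating factors, Csf2 and the related Il3 had no count in any library, and Csf3 had 0 counts in young aorta and 0, 9 and 3 in aged replicates 1 to 3. Transcripts of these factors were therefore not detectable or barely detectable at this depth, where a count of 0 allows up to 0.0966 CPM before scaling in the shallowest library (3 counts). Kitl, the ligand of the receptor Kit, was at 31.4, 15.6 and 15.01 CPM in young and at 39.0, 27.4 and 40.9 CPM in aged replicates 1 to 3, and its groups overlapped through young replicate 1. Its log2 fold change was 0.79 (SE 0.32; adjusted p = 0.467 by edgeR). Kit itself was at 0.993 to 6.97 CPM with a log2 fold change of -0.19 (SE 0.76). Flt3l, which acts on dendritic cell precursors, had a log2 fold change of 0.38 (SE 0.28), and its receptor gene Flt3 had 0 to 5 counts per library.

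Receptor chains for the other factors were low. Il3ra, the interleukin 3 receptor chain, was at 3.71, 2.64 and 2.36 CPM in young and at 8.58, 3.37 and 7.33 CPM in aged replicates 1 to 3. Aged replicate 2 again lay among the young libraries. Csf3r, the receptor for granulocyte colony stimulating factor, was at 0.248, 0.747 and 0.291 CPM in young and at 1.02, 1.11 and 1.38 CPM in aged replicates 1 to 3, with no overlap. Csf2ra also did not overlap in CPM, with 3.97 to 4.15 CPM in young and 4.92 to 6.32 CPM in aged aorta. Its log2 fold change was 0.45 (SE 0.23). In FPKM its groups overlapped, with aged replicate 3 at 1.347 and young replicates 1 and 3 at 1.354 and 1.357. Every aged library was above every young one in CPM in 7.74% of all tested genes. Csf2rb, the shared chain, and Csf2rb2 lay between 0.408 and 2.41 CPM with overlapping groups. As they are close copies of each other, their split of reads is uncertain.

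Ptprz1 and Sdc1 encode cell surface proteins that are described as further partners of interleukin 34. Ptprz1 was at 129, 133 and 144 CPM in young and at 70.0, 190 and 117 CPM in aged replicates 1 to 3. Sdc1 was at 29.2, 27.0 and 34.6 CPM in young and at 38.2, 19.6 and 43.9 CPM in aged replicates 1 to 3. For both genes the aged libraries lay on either side of the young ones, and the log2 fold changes were -0.11 (SE 0.33) and 0.16 (SE 0.30).

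Genes that act below the receptor, together with the proteases Adam10 and Adam17, were read as a list of 26, all of which passed the filter. By edgeR 0 were called and 6 were higher and 0 lower at an unadjusted p under 0.05, where 5.56% of all tested genes were higher and 4.82% lower, and DESeq2 called 0. The median log2 fold change was 0.27. The 6 genes were Pik3r1, Fyn, Dok1, Tyrobp, Syk and Inpp5d. Without young replicate 1 the counts were 5 higher and 1 lower, beside 1018 and 934 of 17259 genes. Without aged replicate 2 they were 6 higher and 0 lower, beside 1404 and 955 of 17147 genes. Without young replicate 3 there were 3 higher, beside 667 of 17306 genes. On the log2(FPKM + 0.1) scale by limma, 2 were higher and 2 lower, beside 442 higher and 2221 lower over all genes.

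Pik3r1, the regulatory subunit of phosphoinositide 3-kinase, was at 48.6, 48.7 and 56.9 CPM in young and at 71.5, 73.9 and 71.8 CPM in aged replicates 1 to 3. Its aged libraries lay within a narrow range above the young ones, aged replicate 2 included. Fyn, a kinase of the Src family, was at 14.1, 12.96 and 9.59 CPM in young and at 25.7, 15.6 and 37.2 CPM in aged replicates 1 to 3. Dok1, an adaptor that restrains tyrosine kinase signalling, was at 16.8, 17.2 and 21.9 CPM in young and at 25.1, 54.8 and 31.5 CPM in aged replicates 1 to 3. In CPM the groups did not overlap for any of these genes, as in 7.74% of all tested genes. In FPKM they overlapped for Fyn and Dok1. Fyn was at 3.068 in young replicate 1 and 3.048 in aged replicate 2. Dok1 was at 11.05 in young replicate 3 and 10.81 in aged replicate 1. The adjusted p by edgeR of Pik3r1, Fyn and Dok1 lay between 0.379 and 0.390.

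Tyrobp, an adaptor of myeloid cells, had a log2 fold change of 1.39 (SE 0.46) and the kinase Syk one of 1.38 (SE 0.47). In both, aged replicate 2 lay within the young range. The abundant kinases Akt1 and Mapk3 had overlapping groups. Akt1 was at 157 to 158 CPM in young and 114 to 175 CPM in aged aorta. Mapk3 had a log2 fold change of 0.30 (SE 0.21). Adam17 and Adam10, proteases that release ligand and receptor from the cell surface, had log2 fold changes of 0.13 (SE 0.27) and 0.28 (SE 0.32).

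Transcription factors of the macrophage lineage formed a list of 12 genes, all tested. By edgeR 0 were called and 5 were higher and 0 lower at an unadjusted p under 0.05, beside the same 5.56% and 4.82% over all genes, with a median log2 fold change of 0.53. DESeq2 called 2 as higher, Cebpb and Runx1, where it called 1.43% of genes as higher and 0.753% as lower. The count at an unadjusted p under 0.05 was 3 without young replicate 1 or young replicate 3. Over all genes those fits had 1018 of 17259 and 667 of 17306 higher. The list count was 2 when young replicate 2 or either of aged replicates 1 and 3 was left out. Over all genes those fits had 728 of 17295, 736 of 17274 and 640 of 17445 higher. Without aged replicate 2 the list count was 5, beside 1404 of 17147 genes. In that fit edgeR called 1 gene of the list, beside 110 of all genes.

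Cebpb, a factor of myeloid cells and adipocytes, was at 5.49, 5.52 and 4.89 CPM in young and at 16.0, 34.1 and 14.8 CPM in aged replicates 1 to 3. Its groups were well apart, with the highest value in aged replicate 2, and its log2 fold change was 2.03 (SE 0.35; adjusted p = 0.306 by edgeR). Runx1, which acts on the Csf1r gene in blood cell development, was at 2.31, 2.38 and 2.71 CPM in young and at 7.25, 4.58 and 4.50 CPM in aged replicates 1 to 3. Spi1, the master factor of macrophages, was at 1.59, 1.06 and 2.04 CPM in young and at 5.93, 1.85 and 4.99 CPM in aged replicates 1 to 3. Spi1 thus overlapped through aged replicate 2. The most abundant members Ets2, Maf and Cebpa had log2 fold changes of -0.18, 0.12 and 0.16.

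**Figure D3:**
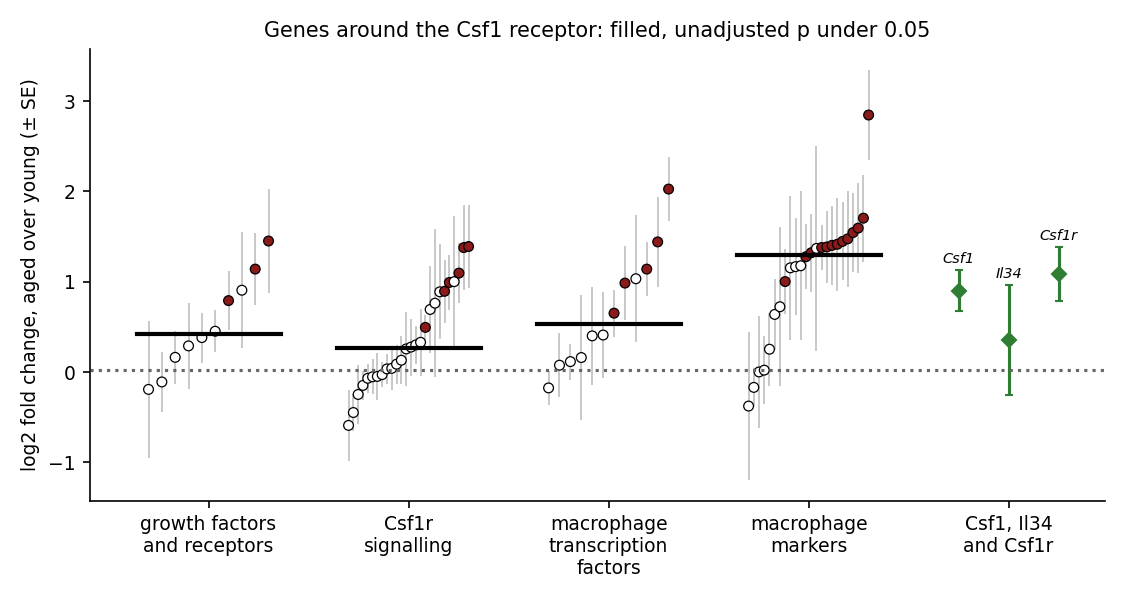
Log2 fold change between the ages (aged over young) and its SE for the tested genes of 4 lists and, as green diamonds, for Csf1, Il34 and Csf1r. Filled points had an unadjusted p under 0.05 by edgeR, black bars are list medians (0.42, 0.27, 0.53 and 1.30) and the dotted line is the median of all genes, 0.02. By edgeR, 0 of the list genes had an adjusted p under 0.05.

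Markers of macrophages, the cells that chiefly carry the receptor, were read as a list of 24 genes, all tested. Of these, 22 had a log2 fold change above 0, and the median was 1.30. By edgeR 0 were called and 13 were higher and 0 lower at an unadjusted p under 0.05, where 5.56% of all tested genes were higher and 4.82% lower. In 6 every aged library was above every young one, as in 7.74% of all tested genes, and in the other 18 the groups overlapped. DESeq2 called 6 as higher, where it called 1.43% of all genes as higher. Without young replicate 1 there were 15 higher, beside 1018 of 17259 genes. Without aged replicate 2 there were 15 higher, beside 1404 of 17147 genes, and 2 were called, beside 110 of all genes. Without aged replicate 1 there were 7 higher, beside 736 of 17274 genes.

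Mrc1, the mannose receptor of resident macrophages, was at 11.2, 10.8 and 9.41 CPM in young and at 31.7, 18.2 and 31.6 CPM in aged replicates 1 to 3. Itgam, a myeloid integrin, was at 1.05, 0.402 and 0.350 CPM in young and at 5.05, 3.76 and 4.39 CPM in aged replicates 1 to 3. For both the groups did not overlap. DESeq2 called them, and also C1qb (adjusted p = 0.0215 by DESeq2), whose groups overlapped. C1qb, a complement subunit made by macrophages, was at 15.9, 9.34 and 9.99 CPM in young and at 61.1, 15.5 and 38.5 CPM in aged replicates 1 to 3, with aged replicate 2 inside the young range. Lyz2, a lysozyme of myeloid cells, was at 64.8, 49.7 and 46.9 CPM in young and at 216, 59.2 and 128 CPM in aged replicates 1 to 3, and overlapped through the same library.

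The summed level of the 24 markers was 535 to 671 CPM in young and 631 to 1023 CPM in aged aorta. That sum was led by Cbr2 and Mertk, with log2 fold changes of -0.17 and 0.02. Without these 2 genes, a choice made after their values were seen, it was 195, 156 and 148 CPM in young and 612, 197 and 426 CPM in aged replicates 1 to 3. Aged replicate 2 was thus level with young replicate 1. The log2 CPM of Csf1r minus the mean log2 CPM of the 24 markers was 1.23, 2.11 and 1.66 in young and 1.58, 1.72 and 1.68 in aged replicates 1 to 3. On this scale the aged libraries all lay within the young range. In RNA of whole vessel, more cells of a type and more RNA per cell cannot be told apart.

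**Figure D4:**
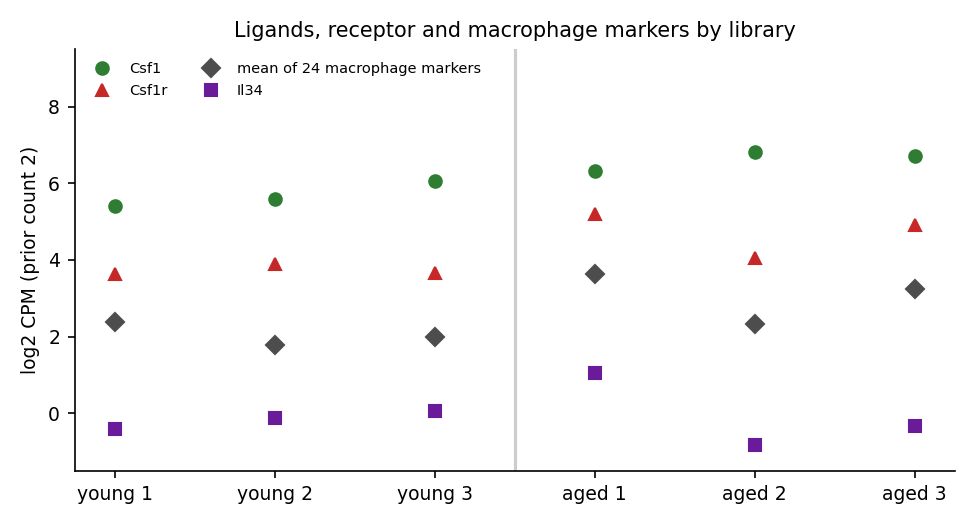
Log2 CPM (with a prior count of 2) of Csf1, Csf1r and Il34 and the mean of 24 macrophage markers in each library. Csf1r and the marker mean were lower in aged replicate 2 (4.06 and 2.33) than in aged replicates 1 and 3, while Csf1 was at 6.81 in that library, the highest of the 6.

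Csf1 did not follow that order of libraries, since aged replicate 2 held its highest level and the lowest mean level of macrophage markers among the aged libraries. Other cell type lists also differed between the libraries. Fibroblast markers summed to 1883 to 2877 CPM in young aorta and to 6707, 1738 and 5066 CPM in aged replicates 1 to 3. Of the 7 fibroblast markers 5 were higher at an unadjusted p under 0.05 by edgeR, where 5.56% of all tested genes were, with a median log2 fold change of 1.45. DESeq2 called 3 of them, where it called 1.43% of all genes as higher. Without young replicate 1 there were 3 higher, beside 1018 of 17259 genes. Without aged replicate 2 there were 6 higher, beside 1404 of 17147 genes. Of these 6 edgeR called 5, beside 110 of all genes. Adipocyte markers summed to 451 to 1662 CPM in young aorta and to 674, 3570 and 941 CPM in aged replicates 1 to 3, with the peak in the library where Csf1 was highest. Their median log2 fold change was 0.43, but 0.24 without young replicate 1 and -1.68 without aged replicate 2. Smooth muscle markers summed to 31097 to 39382 CPM in young and 27359 to 32715 CPM in aged aorta, and 3 of 7 were lower at an unadjusted p under 0.05, where 4.82% of all tested genes were. That count was 3 without young replicate 1, beside 934 of 17259 genes, and 0 without aged replicate 2, beside 955 of 17147 genes. Endothelial markers were at 364 to 507 CPM in 5 libraries and at 1708 CPM in aged replicate 3. The part of these cell types in the Csf1 and Csf1r values was not tested.

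Markers of the remaining cell types were also read as sums. Neutrophil markers summed to at most 2.97 CPM, with Ly6g at 0 in every library, and T or B cell markers to at most 6.84 CPM. Mast cell markers summed to 0.747 to 5.80 CPM in young and 5.99 to 12.9 CPM in aged aorta. Dendritic cell markers summed to 15.8 to 25.1 CPM, nearly all from Zbtb46. Osteoclast markers, which mark another cell type that depends on the receptor, summed to 24.9 to 33.0 CPM in young and to 105, 35.4 and 53.5 CPM in aged replicates 1 to 3, led by Ctsk, which fibroblasts also express. Markers of mesothelium or keratinocytes summed to 1.26 to 59.0 CPM and those of Schwann cells or neurons to 12.4 to 34.3 CPM.

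The genes whose library-to-library pattern was most like that of each member were ranked by the root mean square difference of centred log2 CPM over the 6 libraries. For Csf1 they were Zfp809, Birc3, Rrm2, Adamts1 and Chst11, at differences of 0.092 to 0.17 among 14084 genes compared. Birc3, an inhibitor of apoptosis, was at 10.4, 10.5 and 12.7 CPM in young and at 17.1, 24.7 and 21.4 CPM in aged replicates 1 to 3. Adamts1, a protease of the extracellular matrix, was at 124, 165 and 228 CPM in young and at 241, 288 and 305 CPM in aged replicates 1 to 3. Both shared with Csf1 the lower level in aged replicate 1 among the aged libraries, which follows from how they were ranked.

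For Csf1r the nearest genes were Hfe, C1ra, Cep295nl, S1pr3 and Nbl1, at 0.072 to 0.13. Hfe, which takes part in iron sensing, was at 10.3, 12.7 and 10.4 CPM in young and at 28.6, 13.2 and 27.3 CPM in aged replicates 1 to 3. For Il34 they were Pcdhb9, Prrx1, Gm9294, Nr2f2 and Tec, at 0.11 to 0.19 among 14085 genes. Prrx1, a transcription factor of mesenchymal cells, was at 48.2, 49.95 and 55.1 CPM in young and at 116, 37.6 and 54.5 CPM in aged replicates 1 to 3. Its peak in aged replicate 1, shared with Il34, likewise follows from the ranking. None of the 3 genes was among the nearest of another, with differences of 0.53 between Csf1 and Csf1r, 0.57 between Il34 and Csf1r and 0.82 between Csf1 and Il34.

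**Figure D5:**
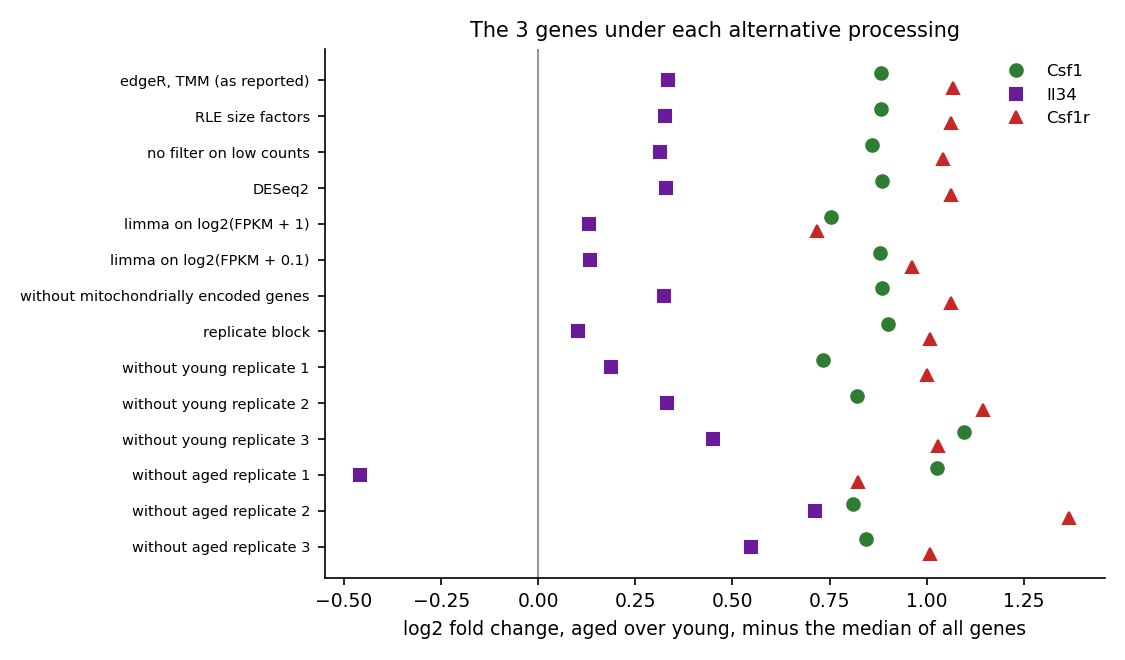
Log2 fold change of Csf1, Il34 and Csf1r, minus the median of all genes, under each alternative processing. Csf1 and Csf1r stayed above 0 in all settings shown, and Il34 was below 0 when aged replicate 1 was left out.

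Across the 13 alternatives, the log2 fold change lay between 0.64 and 1.12 for Csf1, between 0.60 and 1.36 for Csf1r and between -0.45 and 0.70 for Il34. The plot of the alternatives subtracts the median of all genes, which was -0.12 and -0.19 for limma on log2(FPKM + 1) and log2(FPKM + 0.1).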

How the data were processed

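RNA of mouse aorta was sequenced in 6 libraries, 3 young and 3 aged. The authors deposited whole-number counts per gene and FPKM. The submitters' processing notes name the build mm10; the aligner and the counting tool are not given in the sources used here. Counts were filtered (filterByExpr, minimum count 10, minimum total 15), normalized by TMM and fitted with edgeR 4.0.16 in R 4.3.3 without covariates, and p was adjusted by the Benjamini-Hochberg method (threshold 0.05). DESeq2 1.42.0 and limma 3.58.1 were alternatives. The edgeR step was checked on simulated counts. Levels were compared by exact sign-flip permutation over libraries (scipy 1.17.1, pseudocount 0.1). Gene positions were read from GENCODE on GRCm38. The members and lists were chosen with earlier results of these data known. Of the lists, the 3 most abundant genes and the 3 with the smallest p were named, with all growth factors and receptors, the 5 genes most like each member (mean of at least 1 CPM) and neighbours. The rule named 2 abundant genes for each other cell type; these are given as sums, and genes beyond the rule were named after their values were seen. Some genes the rule names are not reported here. Nothing in the labels says more of the mice than age, strain and genotype, so p-values measure the spread between these libraries.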

Additional observations from a re-analysis of the deposited data

How the results depend on the processing

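DESeq2 called 334 genes (219 higher and 115 lower) where edgeR called 0, and leaving out 1 library gave 0 to 110 calls by edgeR, where 110 came from the fit without aged replicate 2. The cause of either was not tested. The log2 fold change of Il34 turned to -0.059 by limma on log2(FPKM + 0.1), where the median of all genes was -0.19, and to -0.45 without aged replicate 1, in a range of -0.45 to 0.70 over the libraries left out. That of Csf1r was 0.60 by limma on log2(FPKM + 1). With 5 libraries the exact permutation p of each level cannot go below 0.0625, and the log2 difference ranged from 1.86 to 2.18 for Csf1 over Csf1r, from 4.36 to 4.79 for Csf1 over Il34 and from 2.42 to 2.73 for Csf1r over Il34. Replicate numbers did not pair the libraries by the correlation of deviations (0.0786, 0.117 and 0.0957 for numbers 1, 2 and 3). Under the block on replicate number 0 genes were called, and the log2 fold changes were 0.91 for Csf1, 0.12 for Il34 and 1.02 for Csf1r. At an unadjusted p under 0.05 by limma, 418 genes were higher and 2249 lower with a pseudocount of 1, and 442 and 2221 with 0.1, against 923 and 800 by edgeR. List counts under each setting were added after the data were seen. They ranged from 0 to 4 higher for growth factors and receptors, from 2 to 6 for receptor signalling, from 1 to 5 for transcription factors and from 7 to 15 for macrophage markers. Il34, with 19 to 67 counts per library, is limited by depth.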
